A study of Mus musculus with 12 samples.

Results

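The genes described here are 47 lysosome and autophagy genes, a listed set drawn from 51707 genes in the deposited RNA-seq quantification of mouse MLO-Y4 cells. They were listed by name, with earlier results of these data known. They comprise 6 membrane proteins and transporters, 11 proteases, and 11 glycosidases and sulfatases. The rest are 6 lipid enzymes and cofactors, 3 transcription factors and 10 genes of the autophagy machinery. MLO-Y4 is a mouse cell line with osteocyte-like features, labelled wild type and grown on rat tail type I collagen in every group. The 4 groups of 3 libraries each were differentiated cells given BIGH3, differentiated cells labelled as controls, undifferentiated cells given BIGH3 and undifferentiated cells labelled as controls. BIGH3 is a secreted matrix protein, applied here as the recombinant human protein at a dose and for a time that the labels do not give. Differentiation medium held ascorbic acid at 50 µg/mL, β-glycerophosphate at 4 mM and serum at 10%, supplements commonly used for mineralising bone cultures. The protocol text also names HCQ, an abbreviation it does not spell out, and anti-BIGH3 antibodies, but no sample label carries either, and neither was analysed here. All libraries came from 1 cell line, and nothing in the labels says that the replicates were separate cultures, so the p-values measure the spread between these samples, which may be technical.

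Lysosomes are acidic organelles that break down proteins, glycans and lipids delivered by endocytosis or by autophagy, the process in which a double membrane encloses cytoplasm and fuses with the lysosome. Their soluble enzymes are made in the secretory pathway and are sorted by a mannose 6-phosphate tag, while membrane glycoproteins such as LAMP1 and LAMP2 line the organelle. TFEB, TFE3 and MITF are related transcription factors that bind the E-box CACGTG and its lysosomal extension, the CLEAR element, in promoters of many of these genes. In bone, cathepsin K is best known as the collagen-degrading enzyme of osteoclasts, and osteocytes use it to remodel the matrix around themselves.

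Depth ran between 19014492 and 27612155 estimated reads per library, and 14711 genes passed the filter on low counts and were tested. Of the 47 genes, 45 passed that filter. Ctsc and Ctsf, which encode the proteases cathepsin C and cathepsin F, did not, with between 6 and 26 reads per group for Ctsc and between 1 and 3 for Ctsf. Among 7 osteocyte markers, Dmp1, Phex, Pdpn and Gja1 were measured, whereas Fgf23 was at 0 in all 12 libraries, Sost was at 0 in 3 of the 4 groups and Mepe averaged at most 0.630 CPM in any group. CPM is a gene's count scaled to a common library size, here after TMM, the correction for library composition in edgeR. Transcripts of 10 liver genes summed to 108 CPM in undifferentiated control replicate 2, 51.1 CPM in differentiated BIGH3 replicate 3, 45.2 CPM in differentiated control replicate 2 and 21.2 CPM in undifferentiated BIGH3 replicate 1. The other 8 libraries held between 2.28 and 6.31 CPM of these genes, and results were also computed with the 3 or the 4 libraries that held most of them left out. Summed over all 47 genes, the set took 13885, 13917 and 13922 CPM in differentiated BIGH3 cells and 13374, 13377 and 13354 CPM in differentiated control cells. The same sum was 9326, 9064 and 9431 CPM in undifferentiated BIGH3 cells and 9289, 9222 and 9395 CPM in undifferentiated control cells. All differentiated libraries thus lay above all undifferentiated ones.

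On a scale that corrects for length (TPM), the levels of these genes covered several orders of magnitude. The highest was Cd63, a tetraspanin of late endosomes and lysosomes, at 1970 ± 91.1 TPM in differentiated BIGH3 cells, 1820 ± 53.3 TPM in differentiated control cells, 1256 ± 11.6 TPM in undifferentiated BIGH3 cells and 1237 ± 40.2 TPM in undifferentiated control cells (SD, n = 3 each). Lamp1 and Psap, of which Psap encodes the precursor of the saposins that present lipids to their hydrolases, came next in both undifferentiated groups, with Lamp1 at 559 ± 8.01 TPM in BIGH3 cells and 570 ± 17.6 TPM in control cells (SD, n = 3 each). In differentiated BIGH3 cells Lamp1 at 659 ± 22.3 TPM, Ctsb at 642 ± 17.4 TPM and Psap at 634 ± 34.0 TPM (SD, n = 3 each) differed by less than their spread. About 48.4% of the Ctsb level there came from a short transcript model annotated as a retained intron, so the place of Ctsb in this order depends on that model. At the other end, 4 genes lay below 1 TPM in differentiated BIGH3 cells and 3 did so in differentiated control cells, among them Ctss, the gene of cathepsin S.

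Differentiation was accompanied by higher levels of most of the set. In control cells 36 of 45 genes rose and 3 fell at an adjusted p below 0.05, where 29.1% of all genes tested were called higher and 28.6% lower (edgeR quasi-likelihood test, Benjamini-Hochberg adjustment over all genes, differentiated control over undifferentiated control). The median log2 fold change of the 45 genes was 0.50, against -0.01 over all genes tested. All 9 proteases tested and all 6 lipid enzymes and cofactors rose, as did 8 of 11 glycosidases and sulfatases, 4 of 6 membrane proteins, 8 of 10 autophagy genes and 1 of 3 transcription factors. On log2(TPM + 1), which carries no correction for composition, the sign turned for Lipa (-0.12), Ppt1 (-0.12), Glb1 (-0.10), Becn1 (-0.0087) and Atg5 (-0.0080), none of them called. On that scale the calls for Ctsa, Tpp1, Gaa, Npc2, Lamp1, Lamp2, Sqstm1, Map1lc3b and Atg7 were lost with no change of sign (limma adjusted p 0.156 to 0.917). The plot of values by library shows this as a red block over the differentiated columns.

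**Figure D1:**
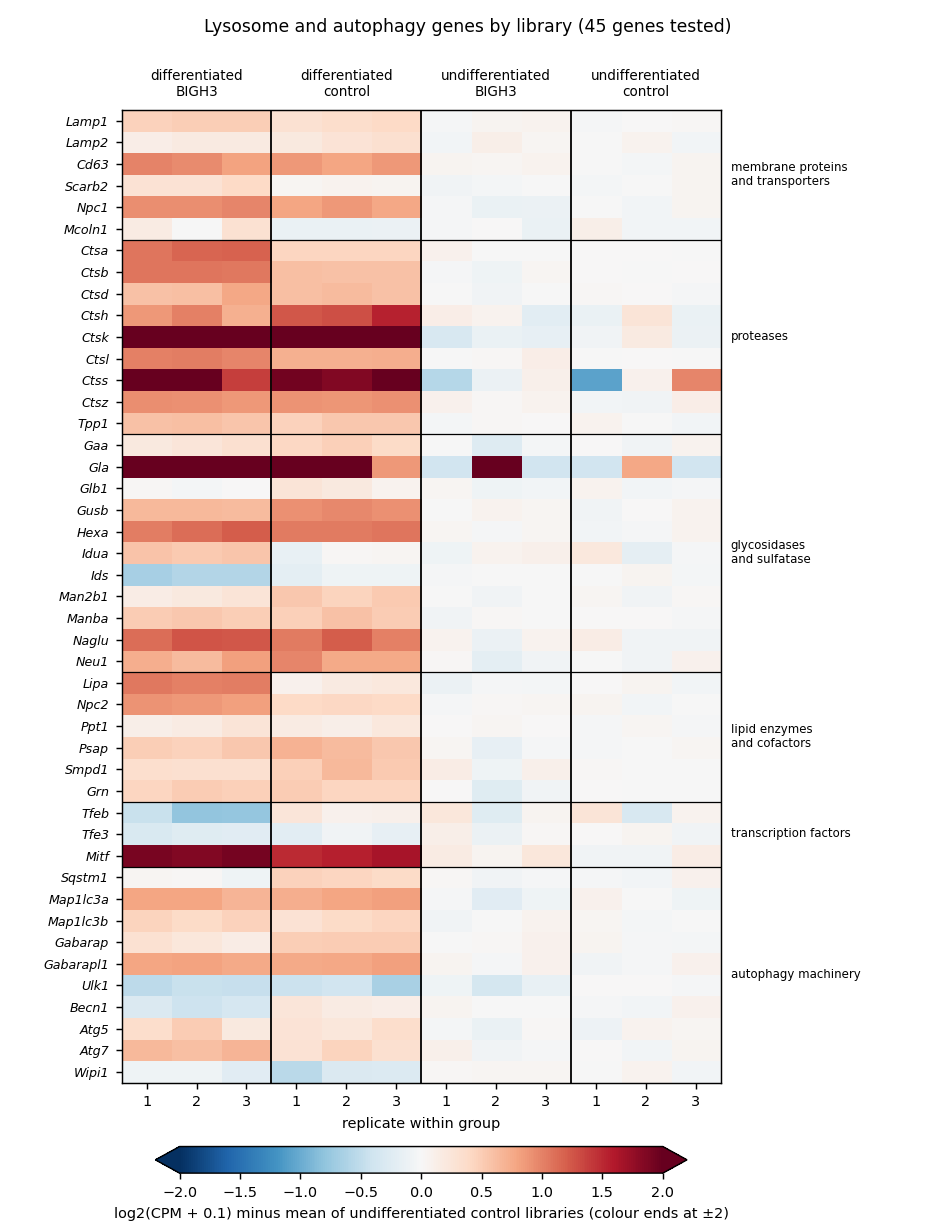
Each row is 1 of the 45 genes tested, grouped by role, and each column 1 library. Colour gives log2(CPM + 0.1) minus the mean of the 3 undifferentiated control libraries, with colours ending at 2 in either direction. The differentiated libraries are red in most rows, and the undifferentiated ones are pale apart from Gla and Ctss, which had few reads.

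Cathepsin K showed the largest rise. Ctsk (ENSMUSG00000028111.4, chromosome 3, 95499256 to 95509362 on the plus strand of GRCm38) had 33.6, 34.0 and 35.3 CPM in differentiated control cells and 2.81, 3.35 and 2.72 CPM in undifferentiated control cells. The groups were far apart, with a fold of 11.6 (log2 3.53 ± 0.10 SE, edgeR adjusted p = 4.93e-17). Its neighbour Ctss (chromosome 3, 95526786 to 95556403), which encodes a cathepsin of antigen-presenting cells, had 0.703, 0.660 and 1.24 CPM in differentiated control cells and 0, 0.123 and 0.314 CPM in undifferentiated control cells. This call rests on 58 reads in the differentiated and 12 in the undifferentiated control group (log2 2.44 ± 0.65 SE, edgeR adjusted p = 0.00326). Ctsh, an aminopeptidase of the same family, had 24.3, 24.99 and 29.7 CPM in differentiated and 9.28, 12.1 and 9.28 CPM in undifferentiated control cells, a rise of 2.57-fold (log2 1.36 ± 0.12 SE).

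Among the glycan-degrading enzymes the largest rises were those of Naglu and Hexa, which act on heparan sulfate and on gangliosides. Naglu had 64.7, 72.8 and 62.9 CPM in differentiated and 34.7, 29.7 and 29.9 CPM in undifferentiated control cells (2.13-fold). Hexa had 379, 378 and 390 CPM in differentiated and 179, 182 and 194 CPM in undifferentiated control cells (2.07-fold). In both genes every differentiated control library exceeded every undifferentiated control library, as in 31.9% of all genes tested. Gla, the alpha-galactosidase A gene, was close to the detection limit, with 33 reads in the differentiated and 3 in the undifferentiated control group, and was not called (edgeR adjusted p = 0.133). Without undifferentiated BIGH3 replicate 2, which alone held 1.40 CPM of Gla, its adjusted p was 0.00408 in this comparison and 0.00138 in the same comparison within BIGH3 cells.

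Of the transcription factors, only Mitf rose. It had 17.8, 18.7 and 19.9 CPM in differentiated and 5.96, 5.97 and 6.98 CPM in undifferentiated control cells, a fold of 2.97 (log2 1.57 ± 0.09 SE, edgeR adjusted p = 1.01e-11). Tfeb had 10.96, 9.76 and 9.88 CPM in differentiated and 11.1, 7.31 and 9.63 CPM in undifferentiated control cells, with overlapping groups (log2 0.13 ± 0.15 SE). Tfe3 had 46.6, 51.4 and 48.2 CPM in differentiated and 54.3, 55.9 and 51.4 CPM in undifferentiated control cells, with the groups just overlapping, and was not called (log2 -0.14 ± 0.06 SE, edgeR adjusted p = 0.0586). Tfe3 passed the test as lower without undifferentiated BIGH3 replicate 1 (edgeR adjusted p = 0.0446) or 2 (0.0377), undifferentiated control replicate 3 (0.0325) or differentiated control replicate 2 (0.0370).

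The 3 genes that fell were Ulk1, the kinase that starts autophagosome formation, Wipi1, a phosphoinositide-binding protein of the forming autophagosome, and Ids, a sulfatase acting on dermatan and heparan sulfate. Ulk1 had 22.9, 23.7 and 19.7 CPM in differentiated and 31.2, 31.2 and 30.6 CPM in undifferentiated control cells (log2 -0.49 ± 0.08 SE). Wipi1 had 57.3, 67.5 and 68.3 CPM in differentiated and 82.2, 87.3 and 79.6 CPM in undifferentiated control cells (log2 -0.37 ± 0.06 SE). Ids had 84.5, 90.86 and 90.97 CPM in differentiated and 96.7, 100.2 and 93.95 CPM in undifferentiated control cells (log2 -0.13 ± 0.05 SE). The Ids call was lost without differentiated control replicate 1 (edgeR adjusted p = 0.145) or undifferentiated control replicate 2 (edgeR adjusted p = 0.103). Other machinery rose, among them Gabarapl1 (log2 0.78 ± 0.05 SE), Map1lc3a (0.78 ± 0.07 SE) and Sqstm1 (0.42 ± 0.05 SE), which encode ATG8-family proteins and the cargo receptor p62.

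The scale matters for this comparison. On log2(TPM + 1) without correction for composition the median of all genes was -0.25 and 23 genes of the set were higher and 7 lower. With every library centred on its median gene the counts were 36 and 4. The shares of all genes called on these scales are not given here, so these counts cannot be set against them. The call for Glb1 was lost without differentiated control replicate 1 (edgeR adjusted p = 0.0713), and that for Lipa without undifferentiated control replicate 3 (0.0503) or differentiated control replicate 3 (0.0530). BIGH3 cells gave a similar count when differentiated and undifferentiated cells were compared, with 36 genes higher and 6 lower (28.9% and 27.7% of all genes) and a median log2 fold change of 0.54. There Tfeb, Tfe3 and Becn1 fell alongside Ulk1, Wipi1 and Ids, with log2 fold changes of -0.69 for Tfeb, -0.27 for Tfe3 and -0.36 for Becn1. In BIGH3 cells the Ppt1 call was lost without differentiated BIGH3 replicate 3 (edgeR adjusted p = 0.0606), and the Wipi1 call without differentiated BIGH3 replicate 3 or any undifferentiated BIGH3 replicate (0.0522 to 0.0981). The Lamp2 call was lost without any library but undifferentiated BIGH3 replicate 2 and undifferentiated control replicates 2 and 3 (0.0582 to 0.246). The Mcoln1 call was lost without any differentiated library but BIGH3 replicate 2, and without undifferentiated BIGH3 replicates 1 or 3 (0.0518 to 0.249).

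Promoter sequence was examined for the E-box and its extension as a description, with no test. A RefSeq window of 250 bases before to 50 after the start (GRCm38.p6) was found for 42 of the 47 genes, and Npc1, Ctsb, Ctsh, Map1lc3a and Becn1 had none. The letters CACGTG, which read the same on both strands, stood in the window of 12 of 42 genes (28.6%), and in 2187 of 27025 genes with a window (8.09%). The extended form TCACGTGA, which contains the shorter one, stood in 4 of 42 (9.52%), and in 304 of all genes (1.12%). The 4 were Ctsa, Ctsd, Gla and Mcoln1. In Ctsa, the window at 164833523 to 164833822 held it on either side of that window's start. Another Ctsa window, at 164832622 to 164832921, held neither form. That window spans the annotated start of the gene at 164832873, so the Ctsa window with the form lies inside the gene. The windows of Atg7 and Ctsl, which held CACGTG, also lie inside their genes. That of Atg7 is at 114670846 to 114671145, and its gene starts at 114643097. That of Ctsl is at 64370471 to 64370770, and its gene, on the minus strand, starts at 64370890. One 26-base site of each of the 4 genes is shown from 5′ to 3′, with the extended form in capitals.
Ctsa, chr2:164833751-164833776, plus strand: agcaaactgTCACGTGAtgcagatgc
Ctsd, chr7:142387910-142387935, minus strand: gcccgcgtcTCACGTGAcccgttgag
Gla, chrX:134601217-134601242, minus strand: agcgattgaTCACGTGAgcatctacg
Mcoln1, chr8:3500464-3500489, plus strand: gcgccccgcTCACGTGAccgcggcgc

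Lamp1 held the most copies of the shorter form, 4 within 61 bases of its start, while Lipa, the gene with the largest BIGH3 rise described further on, held none in its window. The 120 bases before the start of each are given with CACGTG in capitals.
Lamp1, chr8:13159041-13159160, plus strand: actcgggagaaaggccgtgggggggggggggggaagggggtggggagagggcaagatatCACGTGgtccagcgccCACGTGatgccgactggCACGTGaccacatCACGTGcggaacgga
Lipa, chr19:34527475-34527594, minus strand: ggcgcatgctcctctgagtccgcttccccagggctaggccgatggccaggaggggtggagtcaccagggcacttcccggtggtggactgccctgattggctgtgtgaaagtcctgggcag
Of the genes tested, 9 of 11 with CACGTG in the window and 22 of 29 without it rose with differentiation in control cells, with median log2 fold changes of 0.43 and 0.50. For BIGH3 in differentiated cells, 5 of the 11 rose and 2 fell, and 6 of the 29 rose and 9 fell. Of all genes tested, 22.6% were called higher and 22.9% lower for BIGH3 in differentiated cells. With differentiation in control cells these shares were 29.1% and 28.6%. The split by motif rests on 11 genes and was not tested. These are descriptions of letters in a window and not of binding.

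With BIGH3 in differentiated cells, 13 of 45 genes rose and 13 fell (edgeR adjusted p below 0.05, differentiated BIGH3 over differentiated control). These shares were close to the 22.6% higher and 22.9% lower among all genes tested. The median log2 fold change was 0.02, against -0.01 over all genes. Membrane proteins and transporters had 4 of 6 higher and none lower, glycosidases and sulfatases 1 of 11 higher and 5 lower, proteases 3 of 9 higher and 2 lower, and lipid enzymes and cofactors 2 of 6 in each direction. Among transcription factors Mitf rose and Tfeb fell, and of 10 autophagy genes 2 rose and 3 fell.

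Lipa had the largest rise. It encodes lysosomal acid lipase, which hydrolyses cholesteryl esters and triglycerides (ENSMUSG00000024781.16, chromosome 19, 34492318 to 34527474, minus strand, GRCm38). Lipa had 183, 178 and 180 CPM in differentiated BIGH3 cells and 93.97, 99.67 and 102 CPM in differentiated control cells, a 1.83-fold rise (log2 0.87 ± 0.05 SE, edgeR adjusted p = 4.60e-12). Npc2, the soluble protein that carries the freed cholesterol to NPC1 in the lysosomal membrane, had 515, 504 and 489 CPM with BIGH3 and 364, 368 and 365 CPM without (1.37-fold, log2 0.46 ± 0.04 SE, edgeR adjusted p = 3.17e-08). Npc1 itself had 75.9, 76.4 and 78.8 CPM with BIGH3 and 69.2, 72.7 and 68.2 CPM in controls (log2 0.14 ± 0.05 SE, edgeR adjusted p = 0.0412). In all 3 genes the groups did not overlap, which was common, since 27.3% of all genes tested lay above and 27.8% below without overlap. The Npc1 call was lost in 7 of the 12 fits that left out a single library (edgeR adjusted p 0.0519 to 0.176). The libraries left out in these fits were each of the 6 differentiated ones and undifferentiated BIGH3 replicate 3.

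The proteases went both ways. Ctsa, the carboxypeptidase that also protects neuraminidase and beta-galactosidase (chromosome 2, 164832873 to 164841032), had 461, 488 and 496 CPM in differentiated BIGH3 cells and 294, 295 and 295 CPM in differentiated control cells (1.63-fold, log2 0.71 ± 0.05 SE, edgeR adjusted p = 4.62e-11). Ctsb, an abundant cysteine protease (chromosome 14, 63122462 to 63145923), had 1491, 1476 and 1467 CPM with BIGH3 and 1069, 1060 and 1065 CPM in controls (1.39-fold, log2 0.47 ± 0.04 SE, edgeR adjusted p = 6.76e-09). Ctsl, another cysteine protease, rose by less (log2 0.29 ± 0.05 SE). Against these, Ctsk had 17.1, 17.9 and 16.7 CPM in differentiated BIGH3 cells and 33.6, 34.0 and 35.3 CPM in differentiated control cells, 1.99-fold lower (log2 -0.99 ± 0.08 SE, edgeR adjusted p = 3.17e-09). It was the largest fall of the set, although all BIGH3 libraries still lay above the undifferentiated ones. Ctsh had 18.6, 20.4 and 16.7 CPM with BIGH3 and 24.3, 24.99 and 29.7 CPM in controls (1.42-fold lower, log2 -0.50 ± 0.11 SE, edgeR adjusted p = 0.001385). Ctss had 1.003, 1.497 and 0.448 CPM with BIGH3 and 0.703, 0.660 and 1.24 CPM in controls, on 58 reads in each group, and did not pass the test (log2 0.19 ± 0.56 SE). Ctsd, Ctsz and Tpp1, which encode an aspartic, a cysteine and a serine protease, had log2 fold changes between 0.00 and 0.07 and were not called.

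**Figure D2:**
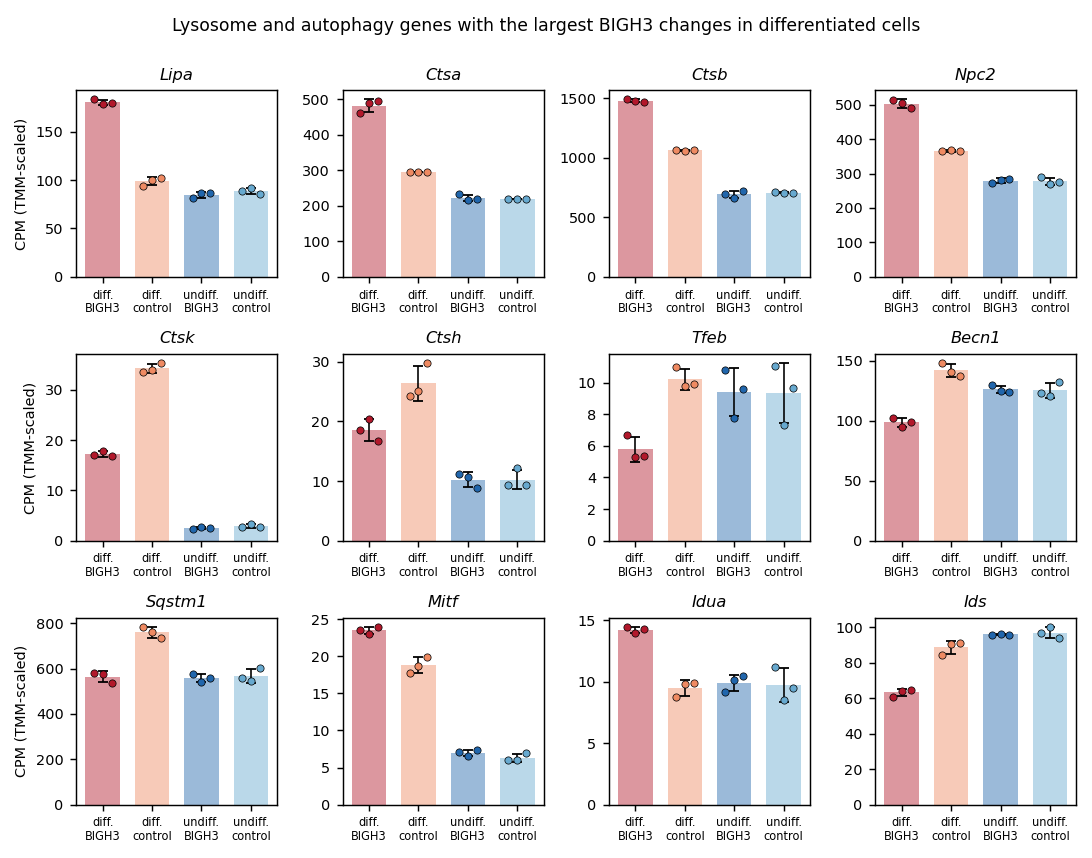
TMM-scaled CPM of 12 genes in the 4 groups, with bars for the mean, error bars for the SD of 3 libraries and a point for each library. Lipa, Ctsa, Ctsb and Npc2 are highest in differentiated BIGH3 cells, and Ctsk, Ctsh, Tfeb, Becn1, Sqstm1 and Ids are lower there than in differentiated controls.

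Among enzymes of glycan breakdown, Idua rose and 5 others fell. Idua, which removes iduronic acid from heparan and dermatan sulfate, had 14.45, 13.96 and 14.27 CPM in differentiated BIGH3 cells and 8.76, 9.85 and 9.93 CPM in differentiated control cells (1.496-fold, log2 0.58 ± 0.11 SE, edgeR adjusted p = 1.66e-04). Ids, the sulfatase that acts just before it, had 60.8, 64.2 and 64.8 CPM with BIGH3 and 84.5, 90.86 and 90.97 CPM in controls (1.40-fold lower, log2 -0.49 ± 0.05 SE, edgeR adjusted p = 4.34e-08). Successive steps of the same pathway thus moved in opposite directions, with no overlap between groups in either gene. Such separation was seen in 27.3% of all genes tested upward and in 27.8% downward. Man2b1, Gusb, Glb1 and Gaa, an alpha-mannosidase, a beta-glucuronidase, a beta-galactosidase and the acid alpha-glucosidase, fell by smaller amounts, with log2 fold changes of -0.30, -0.29, -0.18 and -0.17. Calls for the last 2 were not stable. That for Glb1 was lost without differentiated control replicate 1 (edgeR adjusted p = 0.0551), and that for Gaa without differentiated BIGH3 replicate 1 (0.0822), differentiated BIGH3 replicate 2 (0.0609) or differentiated control replicate 2 (0.0734). Both calls were also lost on log2(TPM + 1) (limma adjusted p = 0.149 for Glb1 and 0.177 for Gaa). Hexa, Manba, Naglu, Neu1 and Gla were not called.

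In the same comparison Psap and Smpd1, the acid sphingomyelinase gene, were lower (log2 -0.13 ± 0.05 SE and -0.23 ± 0.06 SE), and Ppt1 and Grn, which encode a palmitoyl-protein thioesterase and progranulin, were not called. The Psap call was lost without any one of 7 libraries (adjusted p 0.0516 to 0.156), namely differentiated BIGH3 replicates 1 and 2, differentiated control replicates 1 and 2, undifferentiated BIGH3 replicate 3 and undifferentiated control replicates 1 and 2. On log2(TPM + 1) the Psap call was also lost (limma adjusted p = 0.302). The Smpd1 call was lost without the 4 libraries with most liver transcripts (edgeR adjusted p = 0.0552) and on log2(TPM + 1) with no filter (limma adjusted p = 0.0945). Of the membrane proteins, Scarb2, which escorts glucocerebrosidase to the lysosome, and Mcoln1, a cation channel that releases lysosomal calcium, rose by similar amounts (log2 0.27 ± 0.05 SE and 0.28 ± 0.08 SE). Lamp1 rose slightly (log2 0.13 ± 0.04 SE), with 1082, 1110 and 1105 CPM with BIGH3 and 971, 1008 and 1043 CPM in controls. The Mcoln1 call was lost without differentiated BIGH3 replicate 3 (edgeR adjusted p = 0.0633), one of the libraries with liver transcripts. The Lamp1 call was lost without differentiated BIGH3 replicate 2 or 3 or differentiated control replicate 1 or 2 (adjusted p 0.0716 to 0.156). Cd63 was not called, and Lamp2 was not called although its groups did not overlap in CPM (log2 -0.10 ± 0.05 SE, edgeR adjusted p = 0.101). Without differentiated control replicate 1 Lamp2 passed as lower (edgeR adjusted p = 0.0366). In TPM its groups overlapped, with means of 398 TPM with BIGH3 (380 to 420) and 392 TPM in controls (386 to 404).

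The transcription factors diverged. Tfeb (chromosome 17, 47737030 to 47792419) had 6.70, 5.29 and 5.37 CPM in differentiated BIGH3 cells and 10.96, 9.76 and 9.88 CPM in differentiated control cells, 1.76-fold lower (log2 -0.81 ± 0.15 SE, edgeR adjusted p = 2.14e-04). Mitf had 23.6, 23.0 and 24.0 CPM with BIGH3 and 17.8, 18.7 and 19.9 CPM in controls, 1.25-fold higher (log2 0.32 ± 0.09 SE, edgeR adjusted p = 0.00427). Tfe3 had 43.6, 45.5 and 45.8 CPM with BIGH3 and 46.6, 51.4 and 48.2 CPM in controls and did not pass (log2 -0.12 ± 0.06 SE, edgeR adjusted p = 0.159). The groups did not overlap in any of the 3 genes, with Mitf above and Tfeb and Tfe3 below. Of all genes tested, 27.3% lay above and 27.8% below without overlap. Leaving out the 3 libraries with most liver transcripts ended the Mitf call (edgeR adjusted p = 0.0522). Transcript levels say nothing of where the proteins are in the cell, which is how TFEB activity is mainly controlled.

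Autophagy genes also went both ways. Becn1, a subunit of the lipid kinase complex that nucleates autophagosomes, had 102, 94.4 and 99.2 CPM in differentiated BIGH3 cells and 148, 141 and 137 CPM in differentiated control cells (1.44-fold lower, log2 -0.53 ± 0.05 SE, edgeR adjusted p = 2.74e-08). Its level with BIGH3 was also below that of both undifferentiated groups, which lay between 120 and 132 CPM. Sqstm1 had 582, 577 and 536 CPM with BIGH3 and 784, 762 and 737 CPM in controls (1.35-fold lower, log2 -0.43 ± 0.05 SE, edgeR adjusted p = 3.96e-07). Gabarap fell by less (log2 -0.27 ± 0.05 SE), while Atg7, the E1-like enzyme of the conjugation systems, and Wipi1 rose (0.29 ± 0.07 SE and 0.24 ± 0.06 SE). The Wipi1 call was lost without differentiated control replicate 1 (edgeR adjusted p = 0.0535), and the Atg7 call on log2(TPM + 1), log2(TPM + 0.1) and log2(TPM + 1) with no filter (limma adjusted p = 0.0718, 0.0724 and 0.14). Map1lc3a, Map1lc3b, Gabarapl1, Ulk1 and Atg5 were not called, with log2 fold changes between -0.03 and 0.07.

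**Figure D3:**
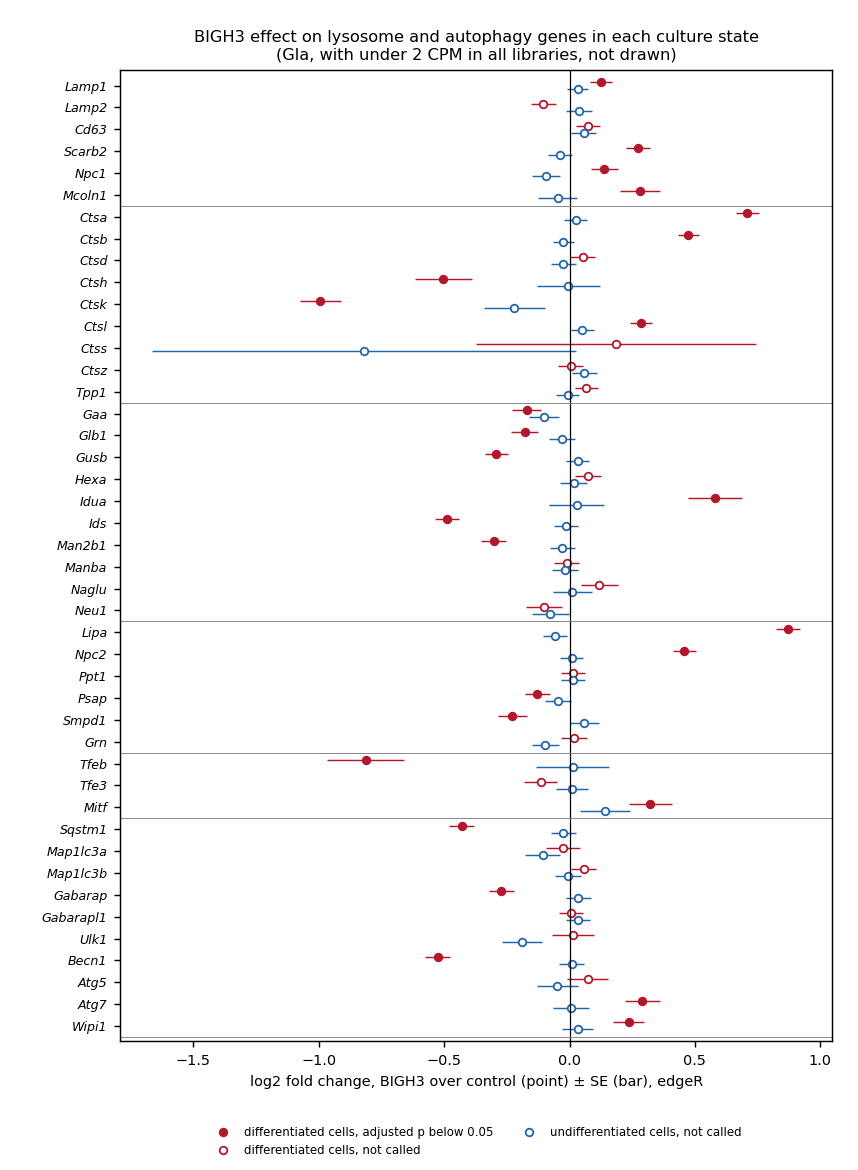
Points give the edgeR log2 fold change of BIGH3 over control for 44 genes, with bars of 1 SE, in differentiated cells (red, upper of each pair) and undifferentiated cells (blue, lower), and filled points mark calls. Red points spread between -0.99 for Ctsk and 0.87 for Lipa, whereas no blue point is filled.

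In undifferentiated cells none of the 45 genes was called for BIGH3, where 0.0068% of all genes tested were called higher and 0.0136% lower. At an unadjusted p below 0.05 there was 1 gene with edgeR and 1 with DESeq2, and DESeq2 also called none after adjustment. With edgeR it was Ulk1, with 29.2, 24.2 and 28.1 CPM in undifferentiated BIGH3 cells and 31.2, 31.2 and 30.6 CPM in undifferentiated control cells (log2 -0.19 ± 0.08 SE, edgeR adjusted p = 1.00). Next in order were Grn, Gla and Gaa. Grn had 385, 324 and 364 CPM with BIGH3 and 386, 381 and 380 CPM in controls (log2 -0.10 ± 0.05 SE), and Gaa had 396, 334 and 389 CPM with BIGH3 and 403, 379 and 419 CPM in controls (log2 -0.10 ± 0.06 SE). Gla had 0, 1.40 and 0 CPM with BIGH3 and 0, 0.123 and 0 CPM in controls, so its fitted change came from 1 library. In Grn, Gaa and Gla the groups overlapped. Among genes above 1 CPM the largest absolute log2 fold change was 0.22, that of Ctsk.

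Whether the BIGH3 effect differed between the culture states was tested as an interaction, the log2 fold change in differentiated cells minus that in undifferentiated cells. It was called for 20 of 45 genes, 10 higher and 10 lower, where 16.2% of all genes were called higher and 16% lower. This contrast shares its libraries with the comparisons already given. The smallest p-values belonged to Lipa (0.93 ± 0.07 SE, edgeR adjusted p = 1.14e-09), Ctsa (0.68 ± 0.06 SE, 4.13e-08), Ctsb (0.50 ± 0.06 SE, 1.04e-06) and Becn1 (-0.54 ± 0.07 SE, 5.24e-06). In undifferentiated cells Lipa had 81.4, 86.9 and 86.5 CPM with BIGH3 and 88.5, 91.9 and 85.1 CPM in controls, and Ctsa had 233, 217 and 219 CPM with BIGH3 and 219, 220 and 218 CPM in controls. Ctsb had 696, 664 and 723 CPM with BIGH3 and 710, 701 and 708 CPM in controls there, and Becn1 had 129, 125 and 124 CPM with BIGH3 and 123, 120 and 132 CPM in controls. The groups overlapped in all 4 genes. The interaction was also called for Ctsk (-0.77 ± 0.15 SE) and Tfeb (-0.83 ± 0.21 SE), but not for Mitf (0.18 ± 0.13 SE, edgeR adjusted p = 0.321), Tfe3 or Ctss. The Tfeb interaction was lost without the 4 libraries with most liver transcripts (edgeR adjusted p = 0.0920). Transcript-length offsets ended the Ctsh, Npc1, Mcoln1, Man2b1 and Atg7 interactions. Single libraries also decided some of these calls. The Ctsh interaction was lost without any library but undifferentiated BIGH3 replicate 3, undifferentiated control replicate 2, differentiated BIGH3 replicate 2 and differentiated control replicates 1 and 2 (edgeR adjusted p 0.0551 to 0.0879). That of Npc1 was lost without any library but undifferentiated BIGH3 replicate 1, undifferentiated control replicates 1 and 2, differentiated BIGH3 replicate 1 and differentiated control replicate 2 (0.0543 to 0.0803). That of Mcoln1 was lost without any library but undifferentiated BIGH3 replicates 1 and 2, undifferentiated control replicates 2 and 3 and differentiated BIGH3 replicate 2 (0.0516 to 0.101). That of Atg7 was lost without any library but undifferentiated BIGH3 replicate 1 and replicate 2 of the other 3 groups (0.0590 to 0.103), and Glb1 gained a call without differentiated control replicate 3 (0.0473). For Ctsh, a transcript annotated for nonsense-mediated decay took 16.2%, 14.3% and 0% of the gene's TPM in the differentiated BIGH3 libraries and 45.7%, 29.7% and 23.0% in the differentiated control libraries. In undifferentiated cells it took 0%, 0% and 25.8% with BIGH3 and 34.2%, 54.1% and 55.4% in controls, so that both BIGH3 groups held libraries at 0. These shares are estimates of how few reads divide between overlapping transcripts, and they were not tested. In undifferentiated control replicate 3, Ctsh-201, another transcript of the gene, was given 0 reads and Ctsh-204 took 38.4%.

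Lamp2 is a case where the gene total hid a shift between transcripts. The gene is on the X chromosome (38401357 to 38456454, minus strand, GRCm38) and its 3 full-length coding transcripts have 9 exons each and differ in the last one, which encodes the membrane span and the cytoplasmic tail. Lamp2-201, whose last exon lies at 38405062 to 38405571, had 208 ± 15.5 TPM in differentiated BIGH3 cells, 161 ± 10.9 TPM in differentiated control cells, 133 ± 6.61 TPM in undifferentiated BIGH3 cells and 130 ± 2.78 TPM in undifferentiated control cells (SD, n = 3 each). Lamp2-202, whose last exon lies at 38419507 to 38421851, had 187 ± 5.24 TPM in differentiated BIGH3 cells, 227 ± 12.8 TPM in differentiated control cells, 234 ± 2.11 TPM in undifferentiated BIGH3 cells and 248 ± 6.57 TPM in undifferentiated control cells (SD, n = 3 each). The share of Lamp2-201 in the gene's TPM was 52.1% ± 1.22 in differentiated BIGH3 cells, 40.9% ± 2.71 in differentiated control cells, 35.9% ± 0.957 in undifferentiated BIGH3 cells and 34.0% ± 0.729 in undifferentiated control cells (SD, n = 3 each). Every differentiated BIGH3 library, at 50.8% or more, lay above every differentiated control library, at 43.8% or less. These are the authors' estimates of how reads divide between overlapping transcripts, and they are given without a test.

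**Figure D4:**
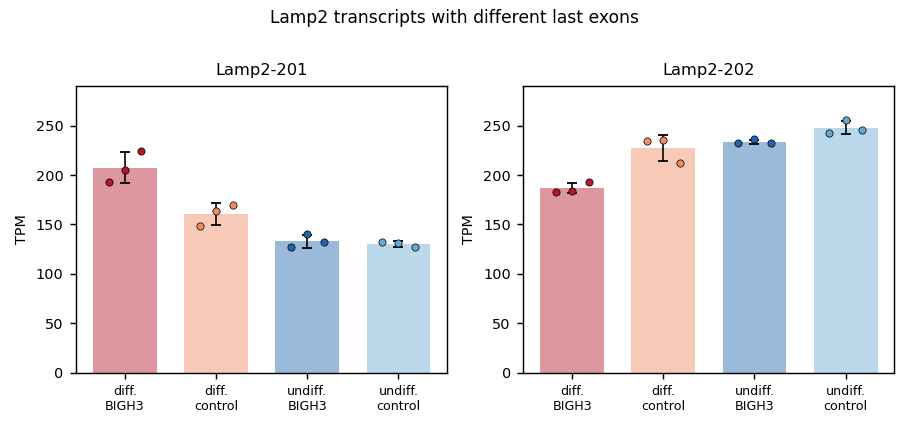
TPM of the 2 main Lamp2 transcripts in the 4 groups, with bars for the mean, error bars for the SD of 3 libraries and a point for each library. Lamp2-201 is highest and Lamp2-202 lowest in differentiated BIGH3 cells.

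A further 136 genes of the same pathways were listed for context, of which 129 were tested. With BIGH3 in differentiated cells 24 rose and 45 fell, with a median log2 fold change of -0.07. In that comparison 22.6% of all genes tested were called higher and 22.9% lower. In undifferentiated cells none was called by edgeR. With differentiation in control cells 78 rose and 17 fell, against shares of 29.1% and 28.6% among all genes tested. The subunits of the vacuolar proton pump, which acidifies the lysosome, had 1 gene higher and 10 lower of 17 with BIGH3 in differentiated cells, and 15 higher and 1 lower with differentiation in control cells. The exception in both comparisons was Tcirg1, a membrane-sector subunit prominent in osteoclasts. It averaged 55.6 ± 2.87 CPM in differentiated BIGH3 cells and 29.3 ± 0.986 CPM in differentiated control cells (SD, n = 3 each; log2 0.92 ± 0.09 SE), against 43.4 ± 6.39 CPM in undifferentiated BIGH3 cells and 49.9 ± 3.91 CPM in undifferentiated control cells. Atp6v0d1, Atp6v1e1 and Atp6v1d were lower with BIGH3, by -0.44, -0.41 and -0.31 on the log2 scale.

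**Figure D5:**
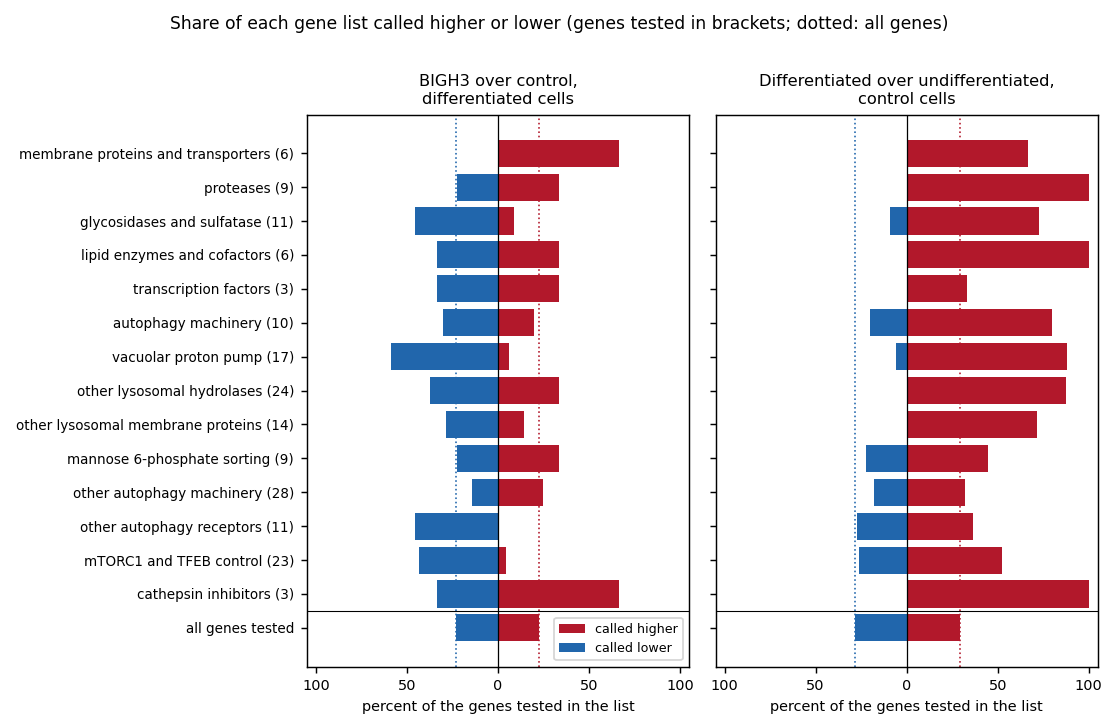
Bars give the percentage of tested genes in each list that were called higher (red, right) or lower (blue, left) for BIGH3 in differentiated cells and for differentiation in control cells, with the number tested in brackets. Dotted lines mark the shares among all genes tested, 22.6% and 22.9% in the left panel and 29.1% and 28.6% in the right panel.

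Among genes that sort enzymes to the lysosome, Gnptab, the catalytic subunit of the enzyme that makes the mannose 6-phosphate tag, averaged 135 ± 3.93 CPM in differentiated BIGH3 cells and 60.8 ± 1.36 CPM in differentiated control cells (SD, n = 3 each), a 2.21-fold rise (log2 1.15 ± 0.05 SE, edgeR adjusted p = 7.25e-14). Igf2r, a receptor for the tag, averaged 565 ± 15.2 CPM with BIGH3 and 393 ± 9.16 CPM in controls (SD, n = 3 each; log2 0.52 ± 0.05 SE). Gga3, an adaptor of the same route, was higher (0.31 ± 0.10 SE) and Gnptg, the gamma subunit of the tagging enzyme, lower (-0.18 ± 0.06 SE). In all, 3 of 9 sorting genes rose and 2 fell, where 22.6% of all genes tested were called higher and 22.9% lower. Of 24 other hydrolases 8 rose and 9 fell, led by Aga, Fuca1, Dpp7 and Naaa with log2 fold changes of -0.75, -0.64, -0.53 and -0.53. Of 14 other membrane proteins 2 rose and 4 fell. They included the endolysosomal channel Tpcn1 (-0.68 ± 0.04 SE) and the chloride exchanger Clcn7 (-0.34 ± 0.07 SE), with its partner Ostm1 at 0.18 ± 0.05 SE and Tpcn2 at 0.28 ± 0.10 SE.

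Regulators and cargo receptors were counted for BIGH3 in differentiated cells against the same shares of all genes tested, 22.6% higher and 22.9% lower. Of 23 genes of mTORC1 and TFEB control, which couple nutrient supply to lysosome gene expression, 1 rose and 10 fell. Fnip2, a partner of folliculin, averaged 59.4 ± 3.61 CPM in differentiated BIGH3 cells and 112 ± 5.27 CPM in differentiated control cells (SD, n = 3 each; log2 -0.91 ± 0.06 SE, edgeR adjusted p = 2.37e-11). Lamtor4 and Rragc, parts of the machinery that holds mTORC1 at the lysosome, were lower (-0.40 ± 0.06 SE and -0.22 ± 0.05 SE) and Lamtor2 was higher (0.25 ± 0.05 SE). None of 11 autophagy receptors rose and 5 fell, among them Calcoco1, Optn, Nbr1 and Retreg1 with log2 fold changes of -0.30, -0.32, -0.21 and -0.25. In the remaining autophagy machinery 7 of 28 rose, close to the share of all genes, and 4 fell, with Ulk2 at -0.50, Atg3 at -0.34, Pik3r4 at 0.37 and Wipi2 at 0.22. Of the cathepsin inhibitors, Cst3 was lower with BIGH3 (log2 -0.63 ± 0.05 SE), and Cstb and Cst6 were higher (0.62 ± 0.07 SE and 0.47 ± 0.14 SE). The 3 averaged 556, 185 and 10.2 CPM, in that order, in differentiated BIGH3 cells, and 859, 120.5 and 7.36 CPM in differentiated control cells.

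Marker levels also differed between the groups. The 7 osteocyte markers summed to between 587 and 614 CPM in differentiated BIGH3 cells and between 423 and 445 CPM in differentiated control cells. In undifferentiated cells the sum was between 386 and 414 CPM with BIGH3 and between 380 and 392 CPM in controls. For BIGH3 in differentiated cells, Dmp1, Gja1 and Pdpn were higher and Phex lower (log2 1.21, 0.80, 0.56 and -1.81). The 10 markers of macrophages and osteoclasts summed to between 57.2 and 57.7 CPM in differentiated BIGH3 cells, 17.1 and 20.5 CPM in differentiated control cells, 9.36 and 10.8 CPM in undifferentiated BIGH3 cells and 10.2 CPM in each undifferentiated control library. Nearly all of it was the protease gene Mmp9, at 55.4 ± 0.409 CPM in differentiated BIGH3 cells and 18.3 ± 2.13 CPM in differentiated control cells (SD, n = 3 each). Tyrobp was at 0 throughout, Csf1r averaged at most 0.105 CPM and Ptprc at most 0.457 CPM in any group, while Fcer1g averaged 1.45 CPM in differentiated BIGH3 cells and at most 0.185 CPM in the other groups. Ctsk was lower with BIGH3 while this sum was higher. In bulk RNA a change in the mix of cells and a change in RNA per cell cannot be told apart, and the part of these markers in the results was not tested.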

How the data were processed

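RNA from 12 samples was sequenced after library preparation with a KAPA standard RNA-seq kit, per the labels' protocols. Per the submitters' processing notes, the tools were Salmon, StringTie, cutadapt and FastQC, on mm10. No source used here gives their versions. The authors deposited, for each library, Salmon estimated counts and TPM per transcript. Transcript IDs were matched without their version to GENCODE M21 (GRCm38), which covered 92.7% of 147828 transcripts, and unmatched transcripts held 1.28% to 3.67% of reads. Counts and TPM were summed per gene, and estimated counts were rounded. Most IDs were 1 version above M21, and the authors' annotation release is not given in the sources used here. No source used here states whether quantification used strand.

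Counts were tested with edgeR 4.0.16 (R 4.3.3): TMM, filterByExpr by group, robust quasi-likelihood fit with 1 term per group over all 12 libraries, two-sided, Benjamini-Hochberg over 14711 genes, called below 0.05. SE is the log2 fold change divided by the square root of F. A BIGH3 log2 fold change had a median SE of 0.089 over all genes, at a coefficient of variation between replicates of 8.18%. The script was tested on simulated counts. No 2 replicates of a group matched within sampling noise. Alternatives used DESeq2 1.42.0 and limma 3.58.1 on log2(TPM + 1) and log2(TPM + 0.1), other scalings and filters, length offsets, a replicate block and left-out libraries, and 1 (TPM centred per library) was added after seeing the data. Values in every library are given for the 6 largest rises and 6 largest falls called for BIGH3 in differentiated cells and for differentiation in control cells, the 4 smallest p-values for BIGH3 in undifferentiated cells and for the interaction, and Ctsk, Ctss, Tfeb, Tfe3 and Mitf. Up to 4 genes of each context list are named by smallest adjusted p. Values of other genes were added after they were seen. The genes and lists were chosen with earlier results of these data known. Promoter sequences are RefSeq windows on GRCm38.p6.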

Additional observations from a re-analysis of the deposited data

Results flagged for a closer look

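For 20 of the 45 genes the BIGH3 effect differed between the culture states, by the test of the difference itself (edgeR interaction, adjusted p below 0.05). Of these, 10 were higher and 10 lower, where 16.2% of all genes tested were called higher and 16% lower. The values are the log2 fold change in differentiated cells minus that in undifferentiated cells. Positive differences were found for Lipa (0.93), Ctsa (0.68), Idua (0.55), Ctsb (0.50), Npc2 (0.45), Mcoln1 (0.33), Scarb2 (0.31), Atg7 (0.29), Ctsl (0.23) and Npc1 (0.23). Negative differences were found for Tfeb (-0.83), Ctsk (-0.77), Becn1 (-0.54), Ctsh (-0.50), Ids (-0.47), Sqstm1 (-0.40), Gusb (-0.32), Gabarap (-0.31), Smpd1 (-0.29) and Man2b1 (-0.27). Groups of 3 libraries are too small to look for single outlying samples.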

How the results depend on the processing

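Calls were kept under every alternative by 16 of 26 genes for BIGH3 in differentiated cells, 22 of 39 for differentiation in control cells, 30 of 42 for differentiation in BIGH3 cells and 8 of 20 for the interaction. No alternative called any of the 45 genes for BIGH3 in undifferentiated cells. The counts that follow are given without the shares of all genes called under the same settings, so they cannot be set against them. For differentiation in control cells, limma on log2(TPM + 1) or log2(TPM + 0.1) called 23 higher and 7 lower, log2(TPM + 1) with no filter 20 and 7, and library totals 5 lower. For the interaction, both TPM scales called 6 lower, and 3 with no filter. TPM and library totals carry no correction for composition: the median of all genes for differentiation in control cells moved to -0.25 on log2(TPM + 1), -0.31 on log2(TPM + 0.1) and -0.16 with library totals. Centred TPM gave 36 higher and 4 lower there, and 8 and 8 for the interaction. On log2(TPM + 1), with or without the filter, and on log2(TPM + 0.1), the sign turned for differentiation in control cells in Glb1 (-0.104 and -0.106), Lipa (-0.121 and -0.123), Ppt1 (-0.121 and -0.122), Becn1 (-0.0087 and -0.0088) and Atg5 (-0.0080 and -0.0084), and in BIGH3 cells in Mcoln1 (-0.126 and -0.131) and Ppt1 (-0.0323 and -0.0326). None of these turned values passed the test. Without the 3 libraries with most liver transcripts, BIGH3 in differentiated cells had 9 genes higher and 12 lower, and without 4 of them 10 and 10. Correlations of same-numbered libraries ran between -0.27 and 0.14. They cannot show whether replicate numbers pair the samples, since libraries with different numbers were not compared. A fit with the replicate block gave 12 higher and 13 lower for BIGH3 in differentiated cells. Leaving out single libraries gave 10 to 13 higher and 11 to 13 lower for BIGH3 in differentiated cells, 35 to 37 and 2 to 4 for differentiation in control cells, 33 to 37 and 5 to 6 in BIGH3 cells, and 7 to 10 and 9 to 10 for the interaction. Depth limits Gla, Ctss, Ctsc and Ctsf, which had under 60 reads in every group.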
